A study of Homo sapiens with 8 samples.

Results

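The epidermal differentiation genes measured here were 41 genes whose symbols named them as S100A proteins, small proline-rich proteins (SPRR), kallikreins (KLK), clade B serpins (SERPINB), Kazal-type inhibitors (SPINK), transglutaminases (TGM), involucrin (IVL), cornifelin (CNFN) or cystatin A (CSTA). They were taken by symbol alone from a table of 13771 genes, leaving out S100A10 and antisense or divergent transcripts. They comprised 12 S100, 9 SERPINB, 6 SPRR, 5 KLK, 4 TGM and 2 SPINK genes together with IVL, CNFN and CSTA, and no late cornified envelope (LCE) gene was in the table.

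RNA was sequenced from 2 human breast epithelial lines. MCF10A is a non-tumorigenic line, and DCIS.COM (MCF10 DCIS.COM) is a model of ductal carcinoma in situ. Each line was stably transduced with a pCDH lentiviral vector, either empty (pCDH-empty) or carrying HOTAIR (pCDH-HOTAIR), a long non-coding RNA, and each of the 4 groups had 2 libraries. All groups, controls included, had been selected with puromycin and were harvested from subconfluent plates. MCF10A was grown in DMEM/F-12 with 5% horse serum, epidermal growth factor, hydrocortisone, insulin and cholera toxin, whereas DCIS.COM was kept in DMEM/F-12 with 5% horse serum alone. Cell line and medium therefore cannot be told apart in any comparison of the lines. The sources used here do not say whether the 2 libraries of a group came from separate cultures or transductions, so p-values measure the spread between these libraries, which may be technical.

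Cells of stratified epithelia end their differentiation by building a cornified envelope. Precursors such as involucrin and the SPRR proteins are cross-linked by transglutaminases beneath the plasma membrane, and calcium-binding S100 proteins are part of the same process. Kallikreins are secreted serine proteases that cut the junctions between shed cells, SPINK proteins inhibit them, and clade B serpins are intracellular protease inhibitors. Many of the genes lie in clusters. In mammary epithelium several of them mark basal or squamous-like cells.

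Upstream sequence is shown for 6 of the genes because they include genes that fell, rose or did not pass the test between the lines, and 4 of the 6 lie in one SPRR and involucrin neighbourhood. The 250 bases before the RefSeq start site (GRCh38.p14 table) were located by exact match on GRCh37, the build of the deposited data. They lie on chromosome 1, IVL at chr1:152880772-152881021 (+), SPRR1A at chr1:152956307-152956556 (+), SPRR2A at chr1:153029989-153030238 (-), SPRR2B at chr1:153044088-153044337 (-), S100A9 at chr1:153330080-153330329 (+) and S100A2 at chr1:153538321-153538570 (-). Capitals mark TGAGTCA, the AP-1 consensus, and TATAAA, the TATA box, on either strand.
IVL: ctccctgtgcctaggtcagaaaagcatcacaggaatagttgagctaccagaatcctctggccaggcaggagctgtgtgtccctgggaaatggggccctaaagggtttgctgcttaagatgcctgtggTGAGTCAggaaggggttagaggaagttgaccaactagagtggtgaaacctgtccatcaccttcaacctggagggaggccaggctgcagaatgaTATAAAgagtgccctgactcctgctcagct
SPRR1A: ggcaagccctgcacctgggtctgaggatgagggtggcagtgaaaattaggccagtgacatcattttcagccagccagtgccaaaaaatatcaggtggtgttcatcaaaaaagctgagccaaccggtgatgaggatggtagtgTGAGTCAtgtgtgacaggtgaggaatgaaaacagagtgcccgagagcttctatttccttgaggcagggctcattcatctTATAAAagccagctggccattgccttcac
SPRR2A: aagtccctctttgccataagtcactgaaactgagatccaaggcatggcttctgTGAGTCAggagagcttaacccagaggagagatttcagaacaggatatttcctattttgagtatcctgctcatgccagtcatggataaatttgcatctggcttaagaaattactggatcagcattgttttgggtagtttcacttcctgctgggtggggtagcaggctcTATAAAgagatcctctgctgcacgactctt
SPRR2B: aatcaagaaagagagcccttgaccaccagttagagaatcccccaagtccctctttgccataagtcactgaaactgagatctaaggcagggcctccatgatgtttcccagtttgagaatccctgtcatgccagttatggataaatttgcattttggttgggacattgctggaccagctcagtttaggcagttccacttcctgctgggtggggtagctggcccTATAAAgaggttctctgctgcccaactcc
S100A9: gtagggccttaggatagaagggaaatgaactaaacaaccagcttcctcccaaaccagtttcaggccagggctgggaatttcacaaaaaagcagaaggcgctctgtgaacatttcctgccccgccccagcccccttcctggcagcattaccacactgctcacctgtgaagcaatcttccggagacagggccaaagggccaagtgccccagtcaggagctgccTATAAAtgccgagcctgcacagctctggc
S100A2: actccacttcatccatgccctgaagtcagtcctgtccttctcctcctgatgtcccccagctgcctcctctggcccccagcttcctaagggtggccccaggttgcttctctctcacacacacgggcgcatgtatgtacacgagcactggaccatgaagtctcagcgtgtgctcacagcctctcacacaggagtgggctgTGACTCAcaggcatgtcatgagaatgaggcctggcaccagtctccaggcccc

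Of the 41 genes, 35 matched an entry in the promoter table, and KLK8, SPRR2D, SPRR2E, TGM1, TGM2 and CSTA had none. TGAGTCA was present upstream of 7 of the 35 genes (20.0%) and of 4.16% of 27305 promoters. The 7 were IVL, SPRR1A, SPRR1B, SPRR2A, S100A2, S100A3 and SERPINB8. TATAAA was present upstream of 11 of the 35 (31.4%) against 11.1% of all promoters, and in SPRR1A, SPRR2A, SPRR2B, S100A9 and IVL it began 29 or 30 bases before the start site. TTGCNNAA, a C/EBP half-site pair, was found upstream of 3 of the 35 (8.57%, against 9.13% of all promoters). Neither CACGTG, the E-box (6.49% of all promoters), nor AACCGGTT, a Grainyhead site (0.106%), occurred upstream of the 35. All motifs were searched on both strands, and TATAAA matches on opposite strands overlapped in SERPINB8 and SPINK5. The SPRR2A window held both motifs and the SPRR2B window the TATA box only, and both genes were lower in DCIS.COM in the comparisons that follow. IVL and SPRR1A both held the AP-1 and TATA letters, and IVL was lower in DCIS.COM whereas SPRR1A did not pass the test. These matches describe letters in a fixed window and were not related to binding, and a link to the changes between the lines was not tested.

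The libraries held between 19306864 and 34884841 recovered reads. HOTAIR itself had 45 and 40 reads with the empty vector and 4614 and 4827 with pCDH-HOTAIR in MCF10A, and 119 and 140 against 7166 and 6385 in DCIS.COM, as the vectors were labelled. All 9 epithelial markers were in the table, with KRT5 and KRT14 (basal keratins) lower and KRT8 and KRT18 (luminal keratins) higher in every DCIS.COM library than in any MCF10A library. These keratins were picked from the 9. TP63, a basal marker of the same list, was higher in DCIS.COM, by 0.75 on the log2 scale with the empty vector and 0.77 with pCDH-HOTAIR. KRT17, KRT19, EPCAM and CDH1 are not given by gene here. No fibroblast marker of 6 was in the table, and of the leukocyte markers PTPRC, CD3E and MS4A1 were not listed. CD68 and CD14, the 2 leukocyte markers listed, summed to 41.4 to 47.1 CPM in MCF10A and 5.63 to 6.55 CPM in DCIS.COM. Of the endothelial list 1 of 3 genes was present, summing to 1.70 to 2.69 CPM in MCF10A and 10.1 to 13.3 CPM in DCIS.COM, and of the melanocyte list 1 of 4, at 0.60 to 1.19 CPM in all libraries. The library DCIS.COM pCDH-empty 1 stood apart. It was the highest or lowest of the 4 DCIS.COM libraries for 33 of the 41 genes (80.5%, against 78.7% of all genes), and the median absolute difference between the libraries of a group over the 41 genes was 0.33 on the log2 scale in its group and 0.08 to 0.13 in the other groups. Counts that rest on this library, and the HOTAIR values in DCIS.COM that it moved most, are also given without it.

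**Figure D1:**
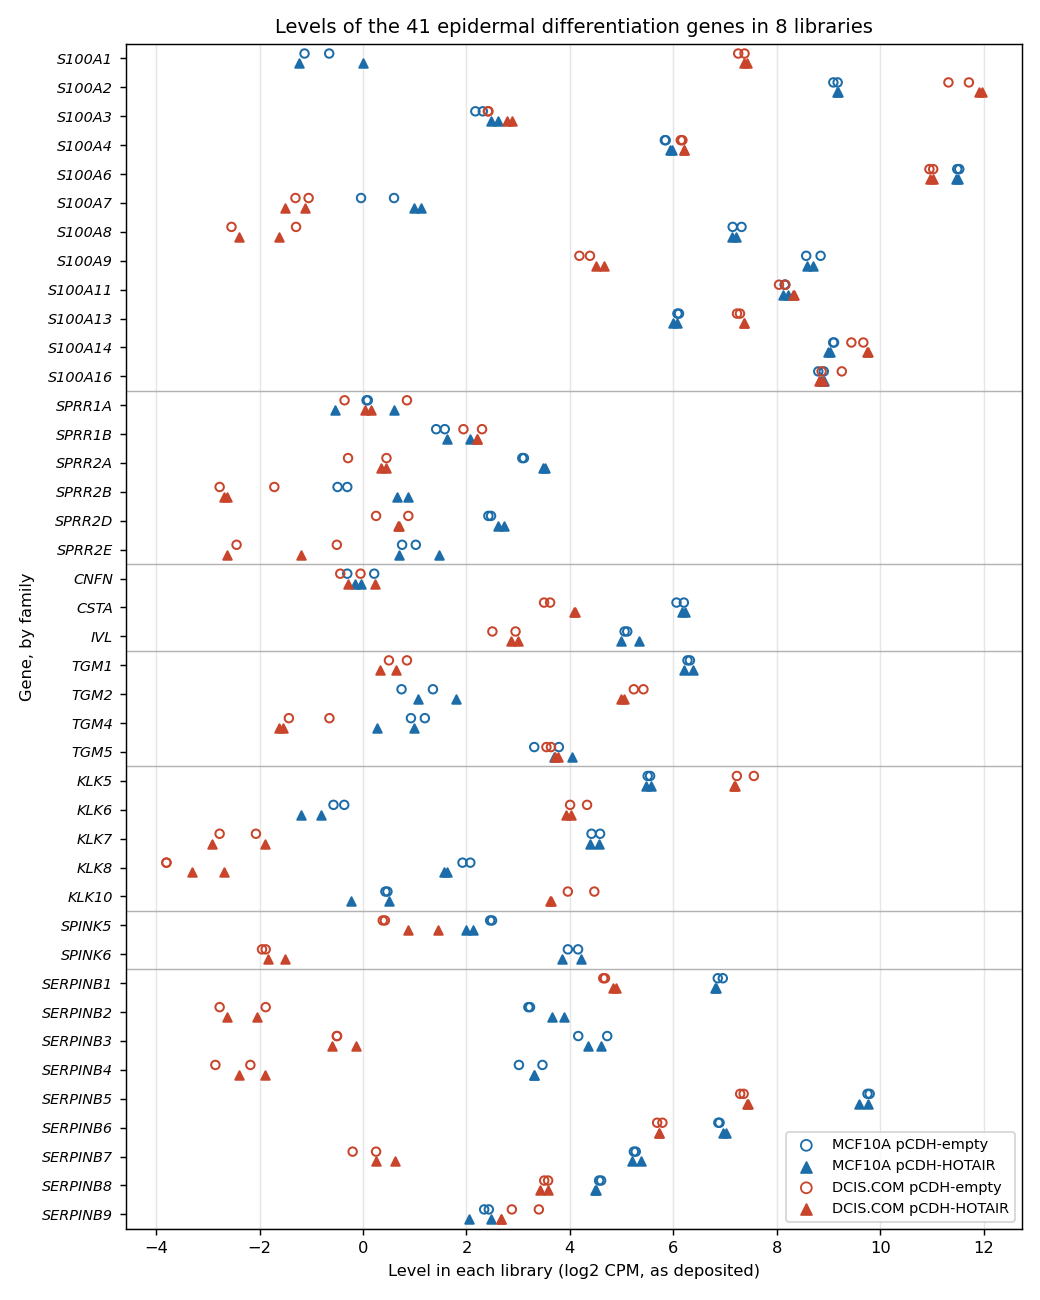
Level of each of the 41 genes in each of the 8 libraries, in log2 CPM as deposited (x axis), with genes grouped by family (y axis). Open circles stand for pCDH-empty and filled triangles for pCDH-HOTAIR libraries, blue for MCF10A and red for DCIS.COM; the lines separate most in S100A8 and S100A1, while the vectors of one line lie close together.

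The families differed widely in level. Levels between genes were compared as CPM per kilobase of GENCODE exon length, which is not the annotation the authors counted on. In MCF10A the highest member was S100A6, a calcium-binding protein of many epithelia, with a median of 2977 CPM per kb (range 2898 to 3040 over 4 libraries). S100A9 followed at 697 (662 to 803), then S100A11 at 439 (429 to 458), S100A14 at 418 (400 to 432) and S100A2 at 372 (353 to 375), and S100A11 and S100A14 overlapped. The lowest member in MCF10A was S100A1, at 0.157 CPM per kb (0.116 to 0.307). In DCIS.COM S100A2 had a median of 2332 CPM per kb (1652 to 2579) and S100A6 of 2097 (2038 to 2143), and their ranges overlapped. S100A14 followed at 655 (544 to 685), S100A11 at 465 (406 to 498) and S100A16 at 278 (265 to 360). KLK8 was the lowest, at 0.00799 CPM per kb (0 to 0.0453). A level above 0.5 CPM in at least 2 libraries was reached in both lines by 31 genes and in MCF10A alone by 10. No member reached it in DCIS.COM alone. S100A1 and KLK6 were close to this level in MCF10A, with 27 and 38 reads summed over the pCDH-empty libraries, so this split depends on the cut-off. In bulk samples, fewer cells of a type and less RNA per cell cannot be told apart, and this holds for every difference given here.

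Summed over a family, CPM was lower in DCIS.COM for the serpins, the SPINK genes, the SPRR genes, the transglutaminases and the set of IVL, CSTA and CNFN, and higher for the S100 genes and the kallikreins. The 9 SERPINB genes summed to 1114 to 1226 CPM in MCF10A and 261 to 277 CPM in DCIS.COM. The 12 S100 genes summed to 5343 to 5560 CPM and 6639 to 8137 CPM, in the same order. The 5 KLK genes summed to 69.1 to 75.6 CPM and 173 to 230 CPM. These sums follow the most abundant members, and the single genes of a family moved in different directions.

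The first comparison asked how the lines differ within each vector. With the empty vector, 32 of the 41 genes (78.0%) were called different between DCIS.COM and MCF10A, 9 higher and 23 lower in DCIS.COM, where 46.3% of all genes tested were called (22.5% higher and 23.8% lower). With pCDH-HOTAIR, 31 (75.6%) were called, 8 higher and 23 lower, against 43.7% of all genes (22% higher and 21.7% lower). The pCDH-empty and pCDH-HOTAIR comparisons share no library in their fold changes. Their p-values are not independent, because the spread of each gene was estimated over all 8 libraries. Genes counted as called when limma gave an adjusted p-value (Benjamini-Hochberg, over all 13771 genes) under 0.05 and the change reached 1.5-fold. The median log2 fold change of the 41 genes was -1.46 with the empty vector and -1.27 with pCDH-HOTAIR, and that of all genes was within 0.01 of 0 in both. KLK8 at its bound instead of its fitted value left the first median at -1.46. The filter of the table bears on these numbers, because the 10 genes above 0.5 CPM in MCF10A alone had to be lower in DCIS.COM, and all 10 were called lower with both vectors. They were KLK7, KLK8, S100A7, S100A8, SERPINB2, SERPINB4, SPINK6, SPRR2B, SPRR2E and TGM4. Of the 31 genes above 0.5 CPM in both lines, 22 (71%) were called with the empty vector, 9 higher and 13 lower, against 42.2% of the 12779 such genes in the table. Their median log2 fold change was -0.05. With pCDH-HOTAIR 21 of the 31 (67.7%) were called, 8 higher and 13 lower, against 39.4%, and the median was -0.02. This narrower count in turn leaves out genes that were lowest in DCIS.COM.

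In both vectors 30 genes were called in the same direction, 7 higher and 23 lower in DCIS.COM, where 38.4% of all genes were (18.8% higher and 19.6% lower). SPRR1B and SERPINB9 were called with the empty vector alone and S100A14 with pCDH-HOTAIR alone, and 8 genes were called in neither. A difference of 16-fold or more in both vectors was fitted for 12 of the 41 genes, 2 higher and 10 lower, and for 4.94% of all genes. Among the genes above 0.5 CPM in both lines it was fitted for 6 of 31, 2 higher and 4 lower, and for 1.21% of the 12779. The 2 higher genes were S100A1 and KLK6, both close to that level in MCF10A. Without DCIS.COM pCDH-empty 1, 30 of the 41 genes were called with the empty vector, and SERPINB9 and SPRR1B were no longer called. SPRR2E was lost without either MCF10A pCDH-empty library (adjusted p = 0.0728 and 0.0516).

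**Figure D2:**
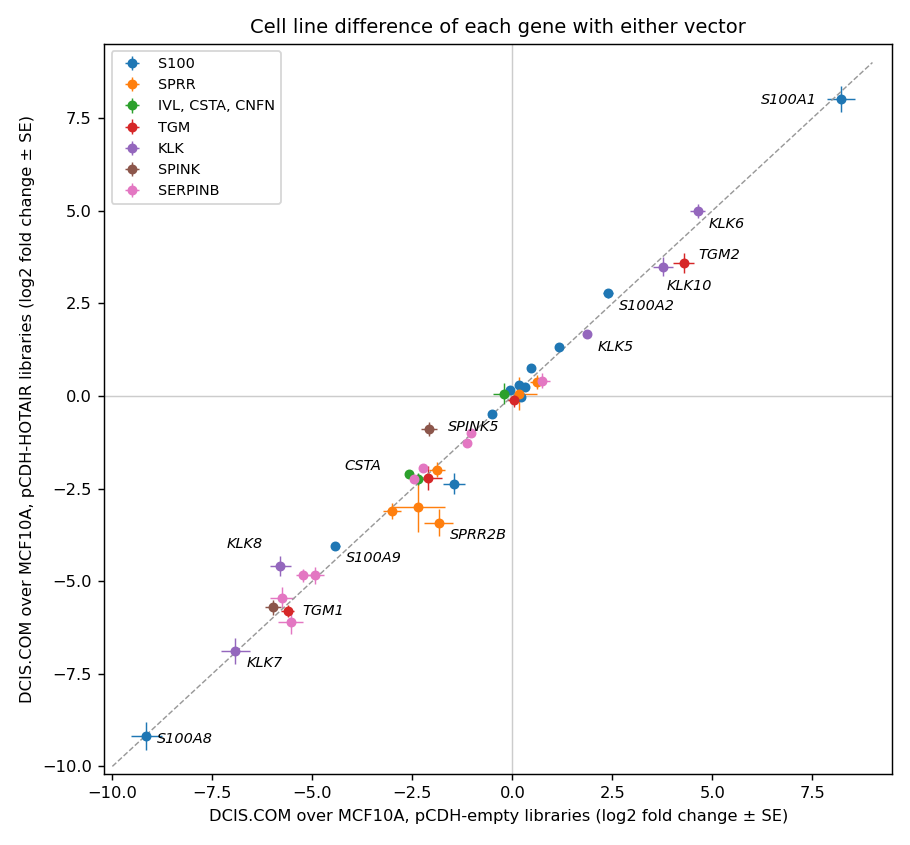
Log2 fold change of DCIS.COM over MCF10A with the empty vector (x axis) and with pCDH-HOTAIR (y axis) for the 41 genes, coloured by family, with standard errors from limma and the line of equal values dashed. The points lie near the dashed line, from S100A8 at -9.15 and -9.18 to S100A1 at 8.21 and 8.01.

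The S100 genes moved in both directions. S100A8 and S100A9, which pair as calprotectin, were lower in DCIS.COM, and S100A1 and S100A2 were higher. Of the 12 S100 genes, 3 were higher, 3 lower and 6 not called with the empty vector, so the share called (50.0%) was near the 46.3% of all genes. S100A8 (chr1:153362508-153363549) had 4974, 3768, 2869 and 2820 reads in the 4 MCF10A libraries and 3, 9, 9 and 4 reads in the 4 DCIS.COM libraries. The summed CPM of S100A8 was 717-fold lower in DCIS.COM with the empty vector (95% interval from counting 410 to 1388) and 768-fold lower with pCDH-HOTAIR (449 to 1444). Intervals from counting cover counting error only. The fitted log2 fold changes of S100A8 were -9.15 ± 0.39 (SE, adjusted p = 3.07e-07) and -9.18 ± 0.39 (adjusted p = 3.11e-07). They ranked 11th and 8th from the lowest of all 13771 genes. S100A8 passed the filter of the table through MCF10A alone, so its direction was set by the filter.

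S100A9, its partner, kept a clear level in DCIS.COM. Its level was 8.85, 8.57, 8.70 and 8.58 log2 CPM in MCF10A and 4.18, 4.39, 4.51 and 4.66 log2 CPM in DCIS.COM, with no overlap. The log2 fold change was -4.42 ± 0.11 (SE, adjusted p = 3.47e-08) with the empty vector and -4.06 ± 0.11 (adjusted p = 4.91e-08) with pCDH-HOTAIR. The ratio of S100A8 to S100A9 CPM within a library was 0.347 to 0.373 in the MCF10A libraries and 0.00473 to 0.0161 in the DCIS.COM libraries, so the pair did not fall in proportion. The summed CPM of the leukocyte markers CD68 and CD14 was also lower in DCIS.COM, as given above. Any part of these markers in this result was not tested.

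S100A1, best known from heart and skeletal muscle, had 12, 15, 18 and 7 reads in the MCF10A libraries and 4993, 4089, 6114 and 5505 reads in the DCIS.COM libraries. The log2 fold change was 8.21 ± 0.35 (SE, adjusted p = 3.23e-07) with the empty vector and 8.01 ± 0.35 (adjusted p = 3.77e-07) with pCDH-HOTAIR, the 28th and 37th highest of all genes. S100A1 and S100A13 lie on opposite strands and share 235 exonic bases, and whether counting used strand is not stated in the sources used here. The level of S100A13 was 6.0 to 6.11 log2 CPM in MCF10A and 7.23 to 7.37 log2 CPM in DCIS.COM. S100A2, a marker of basal epithelial cells, stood at 9.09, 9.18, 9.16 and 9.18 log2 CPM in MCF10A and at 11.32, 11.71, 11.96 and 11.91 log2 CPM in DCIS.COM. Its log2 fold change was 2.38 ± 0.12 (SE, adjusted p = 8.66e-07) with the empty vector and 2.77 ± 0.12 (adjusted p = 3.83e-07) with pCDH-HOTAIR. The basal keratins KRT5 and KRT14 were lower in the same libraries, whereas the basal marker TP63 was higher with both vectors.

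Not every abundant S100 gene was called. S100A6 ranged from 11.46 to 11.53 log2 CPM in MCF10A and from 10.95 to 11.02 log2 CPM in DCIS.COM, a separation under 1.5-fold and so not called. S100A11, an envelope-associated S100 protein, ranged from 8.12 to 8.22 and from 8.04 to 8.34 log2 CPM, and the ranges overlapped. Its difference between the lines with the empty vector was -0.05 on the log2 scale (95% interval -0.21 to 0.10). S100A7 (psoriasin) was scarce in both lines, with 24 to 45 reads in the MCF10A libraries and 10 to 13 in the DCIS.COM libraries, and 3.65% of its 76-base windows are shared with S100A7A. Unlike S100A6 and S100A11, it was called lower in DCIS.COM with both vectors. It passed the filter of the table through MCF10A alone, which set its direction.

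The envelope precursors were mostly lower in DCIS.COM. IVL, a scaffold of the early envelope, stood at 5.06, 5.11, 4.99 and 5.34 log2 CPM in MCF10A and at 2.50, 2.95, 2.99 and 2.85 log2 CPM in DCIS.COM. The groups did not overlap, and the log2 fold change of IVL was -2.36 ± 0.17 (SE, adjusted p = 5.86e-06) with the empty vector and -2.25 ± 0.17 (adjusted p = 8.01e-06) with pCDH-HOTAIR. CSTA, a cysteine protease inhibitor that is also an envelope precursor, stood at 6.20, 6.06, 6.22 and 6.17 log2 CPM in MCF10A and at 3.50, 3.62, 4.09 and 4.09 log2 CPM in DCIS.COM. Its log2 fold change was -2.57 ± 0.08 (adjusted p = 7.95e-08) and -2.10 ± 0.08 (adjusted p = 2.02e-07). CNFN, an envelope component, had 16 to 29 reads in the MCF10A libraries and 20 to 39 in the DCIS.COM libraries. Its difference with the empty vector was -0.20 (95% interval -0.85 to 0.45, adjusted p = 0.545), so neither a lower nor a higher level could be told from no difference.

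All 4 measured SPRR2 genes were called lower in DCIS.COM with either vector, and neither SPRR1 gene was called lower. Over all genes 23.8% were called lower with the empty vector and 21.7% with pCDH-HOTAIR. SPRR2B and SPRR2E passed the filter of the table through MCF10A alone, so their direction was set by it. SPRR2A had 267, 223, 214 and 229 reads in the MCF10A libraries and 39, 20, 46 and 40 reads in the DCIS.COM libraries. Its log2 fold change was -3.01 ± 0.23 (SE, adjusted p = 8.37e-06) with the empty vector and -3.11 ± 0.23 (adjusted p = 7.16e-06) with pCDH-HOTAIR. The fold changes with the empty vector were -2.36 ± 0.67 for SPRR2E (adjusted p = 0.0137), -1.89 ± 0.21 for SPRR2D (adjusted p = 7.56e-05) and -1.85 ± 0.36 for SPRR2B (adjusted p = 0.00199), on the log2 scale. SPRR2B was not called with a pseudocount of 1 CPM (log2 fold change -0.55). SPRR2E was at -3.33 without DCIS.COM pCDH-empty 1 and at -1.39 without DCIS.COM pCDH-empty 2. SPRR1A had 12 to 31 reads in the MCF10A libraries and 19 to 52 in the DCIS.COM libraries, and SPRR1B 58 to 91 and 101 to 162. SPRR1B was called higher in DCIS.COM with the empty vector (log2 fold change 0.62, adjusted p = 0.020) and not with pCDH-HOTAIR. The SPRR2 genes are near-identical copies. Of the 76-base windows of their transcripts, 24.9% of SPRR2A, 25.1% of SPRR2B, 16.5% of SPRR2E and 8.39% of SPRR2D occur in another gene, so the split between the copies is uncertain.

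TGM1 and TGM2 moved in opposite directions. TGM1, the keratinocyte enzyme that cross-links envelope precursors (chr14:24718320-24733638), had 2488, 2055, 1608 and 1476 reads in the MCF10A libraries and 52, 36, 42 and 50 reads in the DCIS.COM libraries. TGM2, the widely expressed tissue transglutaminase (chr20:36755787-36794980), had 50, 66, 39 and 68 reads and 1286, 1008, 1122 and 1104 reads, in the same order. The log2 fold change of TGM1 was -5.62 ± 0.15 (SE, adjusted p = 4.53e-08) with the empty vector and -5.81 ± 0.15 (adjusted p = 4.18e-08) with pCDH-HOTAIR. That of TGM2 was 4.28 ± 0.26 (adjusted p = 2.5e-06) and 3.58 ± 0.26 (adjusted p = 7.24e-06). Per kilobase, TGM1 was 46.2 to 106 times the level of TGM2 in the MCF10A libraries and 0.0760 to 0.0964 times in the DCIS.COM libraries. TGM2 shares 396 exonic bases with RPRD1B on the opposite strand, and the strand setting is not stated. TGM4, known from prostate, was scarce in both lines (22 to 59 reads against 8 to 17) with a log2 fold change of -2.10 ± 0.33 (adjusted p = 0.000668) with the empty vector. TGM5, which acts in epidermis, did not differ beyond the spread, at 0.04 with the empty vector (95% interval -0.36 to 0.44).

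The kallikreins, neighbours within 76.9 kb on chromosome 19, moved in opposite directions. Along the chromosome KLK5 and KLK6 were higher in DCIS.COM, KLK7 and KLK8 were lower, and KLK10 was higher. All 5 were called in the same direction with both vectors, where 38.4% of all genes were. KLK7 and KLK8, the lower ones, passed the filter of the table through MCF10A alone, so their direction was set by it. KLK7, a chymotrypsin-like protease of the skin surface, had 664, 636, 402 and 473 reads in the MCF10A libraries and 5, 2, 7 and 2 reads in the DCIS.COM libraries. Its log2 fold change was -6.92 ± 0.35 (SE, adjusted p = 8.61e-07) with the empty vector and -6.89 ± 0.35 (adjusted p = 9.16e-07) with pCDH-HOTAIR. KLK8 had 129, 99, 58 and 58 reads in MCF10A, 0 reads in both DCIS.COM pCDH-empty libraries and 3 and 1 in the DCIS.COM pCDH-HOTAIR libraries. With a floor of 3 reads over the group, KLK8 was at least 74.8-fold lower in DCIS.COM with the empty vector, and 31.3% of its 76-base windows are shared with a readthrough transcript.

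KLK6 had 22, 16, 7 and 10 reads in the MCF10A libraries and 603, 428, 574 and 509 reads in the DCIS.COM libraries. The log2 fold change of KLK6 was 4.63 ± 0.19 (SE, adjusted p = 2.67e-07) with the empty vector and 4.98 ± 0.19 (adjusted p = 1.89e-07) with pCDH-HOTAIR. KLK10 had 41, 34, 15 and 27 reads and 665, 415, 439 and 407 reads, and its log2 fold change was 3.76 ± 0.26 (adjusted p = 4.65e-06) and 3.49 ± 0.26 (adjusted p = 7.5e-06). KLK5, a trypsin-like protease that activates other kallikreins, was the most abundant of the 5 and stood at 5.47 to 5.56 log2 CPM in MCF10A and 7.17 to 7.56 log2 CPM in DCIS.COM. The ratio of KLK7 to KLK5 CPM was 0.455 to 0.528 in the MCF10A libraries and 0.000410 to 0.00137 in the DCIS.COM libraries. KLK5, KLK6 and KLK10 share 202, 401 and 240 exonic bases with antisense transcripts, and the strand setting is not stated.

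Both SPINK genes were called lower in DCIS.COM with both vectors. The share of all genes called lower was 23.8% with the empty vector and 21.7% with pCDH-HOTAIR. SPINK6 passed the filter of the table through MCF10A alone, so its direction was set by it. SPINK6, an inhibitor of kallikreins, had 483, 473, 279 and 371 reads in the MCF10A libraries and 6, 5, 10 and 7 reads in the DCIS.COM libraries. Its log2 fold change was -5.98 ± 0.20 (SE, adjusted p = 8.99e-08) with the empty vector and -5.71 ± 0.20 (adjusted p = 1.15e-07) with pCDH-HOTAIR. SPINK5, which encodes LEKTI, an inhibitor of KLK5 and KLK7, had 169, 148, 83 and 78 reads and 37, 34, 95 and 59 reads, and the log2 CPM values did not overlap (1.99 to 2.49 against 0.38 to 1.46). Its log2 fold change was -2.07 ± 0.20 (adjusted p = 3.63e-05) with the empty vector and -0.89 ± 0.20 (adjusted p = 0.00466) with pCDH-HOTAIR.

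**Figure D3:**
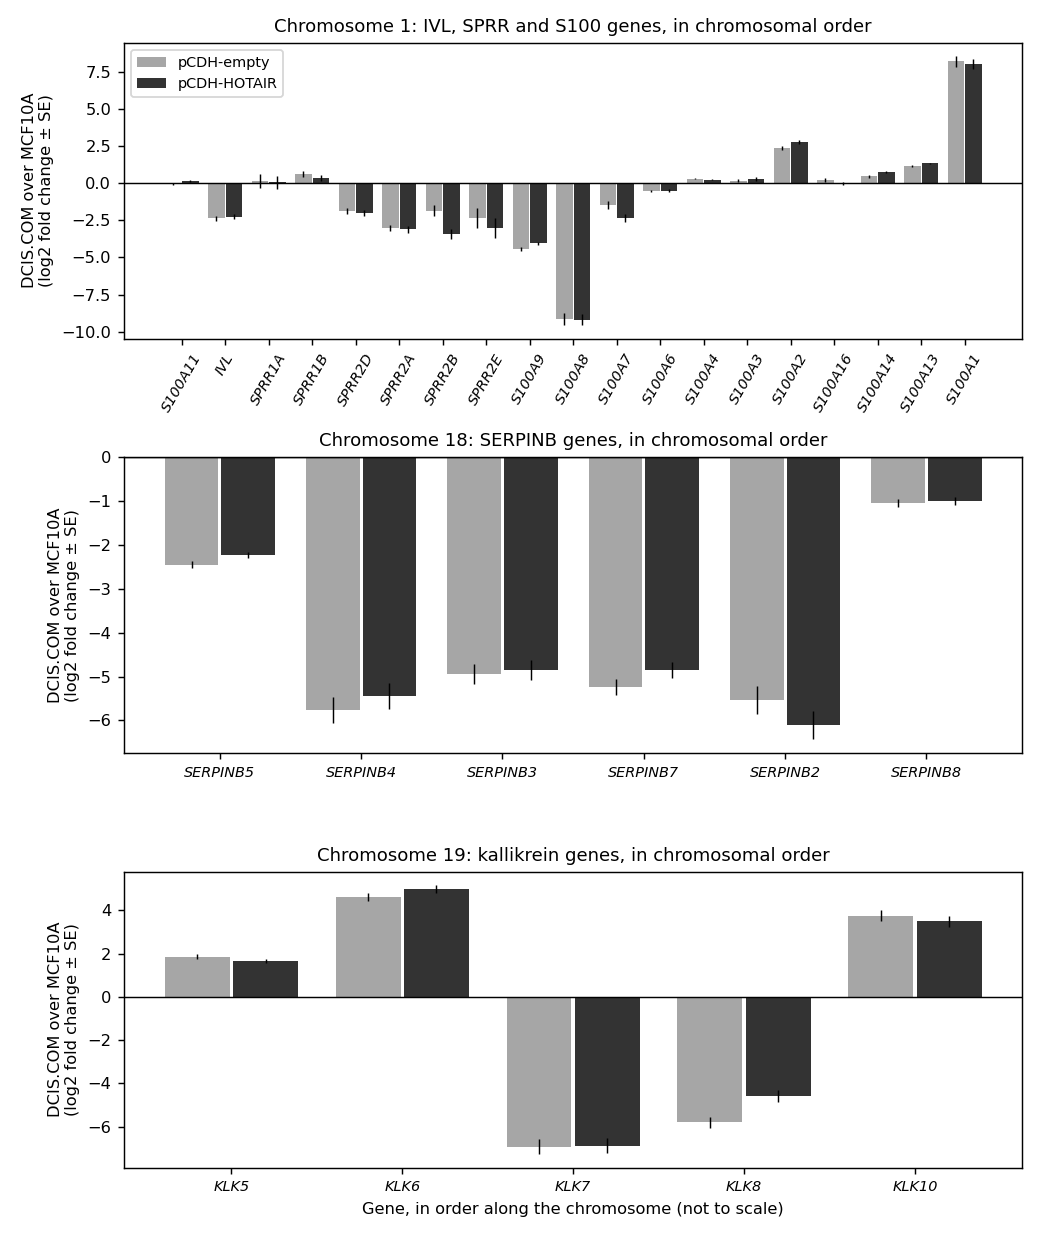
Log2 fold change of DCIS.COM over MCF10A (y axis, bars from 0 with standard errors) for genes in chromosomal order (x axis, not to scale), in grey for pCDH-empty and black for pCDH-HOTAIR libraries. All 6 SERPINB genes of chromosome 18 point down, whereas the chromosome 1 and chromosome 19 genes change sign between neighbours. SERPINB2, SERPINB4, KLK7, KLK8, S100A7, S100A8, SPRR2B and SPRR2E passed the filter of the table through MCF10A alone, which set their direction.

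The clade B serpins of chromosome 18, spanning 543 kb, were lower in DCIS.COM in 6 of 6 cases and with both vectors. Over all genes 23.8% were called lower with the empty vector and 21.7% with pCDH-HOTAIR. SERPINB2 and SERPINB4 were above 0.5 CPM in MCF10A alone, so the filter of the table set their direction. SERPINB2, an inhibitor of urokinase (PAI-2), had 290, 242, 242 and 292 reads in the MCF10A libraries and 6, 2, 6 and 3 reads in the DCIS.COM libraries. SERPINB7 had 1173, 1027, 706 and 825 reads and 24, 30, 40 and 49 reads. Another annotated gene shares 17.4% of the SERPINB2 windows. The log2 fold change with the empty vector was -5.54 ± 0.32 for SERPINB2 (SE, adjusted p = 1.67e-06) and -5.23 ± 0.18 for SERPINB7 (adjusted p = 1.19e-07). With pCDH-HOTAIR it was -6.11 ± 0.32 for SERPINB2 (adjusted p = 9.76e-07) and -4.84 ± 0.18 for SERPINB7 (adjusted p = 1.78e-07).

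SERPINB3 and SERPINB4, the squamous cell carcinoma antigens, are close copies. SERPINB3 had 820, 474, 469 and 404 reads in the MCF10A libraries and 19, 17, 21 and 28 in the DCIS.COM libraries, and SERPINB4 had 343, 213, 189 and 196 and 2, 4, 7 and 4. Their log2 fold changes with the empty vector were -4.95 ± 0.23 for SERPINB3 (SE, adjusted p = 4.69e-07) and -5.76 ± 0.29 for SERPINB4 (adjusted p = 8.12e-07). Shared 76-base windows made up 10.0% of SERPINB3 and 8.38% of SERPINB4, and SERPINB3 shares 620 exonic bases with SERPINB11 on the opposite strand. SERPINB5 (maspin), the most abundant clade B serpin, stood at 9.58 to 9.79 log2 CPM in MCF10A and 7.29 to 7.45 log2 CPM in DCIS.COM. SERPINB8 stood at 4.49 to 4.60 and 3.42 to 3.58 log2 CPM.

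The 3 serpins of chromosome 6 did not share a direction. SERPINB1, an inhibitor of neutrophil elastase, was at 6.80 to 6.96 log2 CPM in MCF10A and 4.64 to 4.88 log2 CPM in DCIS.COM, and was called lower with both vectors. SERPINB6 was at 6.87 to 7.02 and 5.69 to 5.79 log2 CPM and was also called lower with both. SERPINB9, an inhibitor of granzyme B, was at 2.04 to 2.47 and 2.66 to 3.40 log2 CPM, and was called higher with the empty vector alone.

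The second comparison asked whether HOTAIR changed these genes within a line. No member was called in either line or in the difference between the lines, and limma-voom on the recovered reads also called 0. All genes gave 3 calls in MCF10A (0.0218%), 12 in DCIS.COM (0.0871%) and 6 in the difference (0.0436%, made up of 0.0363% higher and 0.00726% lower). At an unadjusted p under 0.05 there were 4 members in MCF10A (9.76%, against 7.28% of all genes), 10 in DCIS.COM (24.4%, against 17.5%) and 7 in the difference (17.1%, against 10.5%). In MCF10A 3 of the 4 were higher and 1 lower with HOTAIR (4.41% and 2.88% of all genes), in DCIS.COM 9 were higher and 1 lower (9.08% and 8.41%), and in the difference 5 were higher and 2 lower (5.21% and 5.34%). With 2 libraries against 2, an exact permutation test of a single gene cannot go below p = 0.333. The median log2 fold change of the 41 genes was 0.01 in MCF10A and 0.09 in DCIS.COM, and that of all genes was -0.01 and 0.01.

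In MCF10A the 4 genes were SPRR2B, S100A7, KLK6 and S100A3. SPRR2B had 23 and 17 reads with the empty vector and 34 and 30 with pCDH-HOTAIR, in shallower libraries, and its log2 fold change was 1.16 ± 0.36 (SE, adjusted p = 0.485). S100A7 had 45 and 24 reads against 37 and 42, and KLK6 22 and 16 against 7 and 10. Their log2 fold changes were 0.77 ± 0.28 for S100A7 (adjusted p = 0.581) and -0.54 ± 0.19 for KLK6 (adjusted p = 0.576). S100A3 was 0.30 ± 0.12 higher with HOTAIR (adjusted p = 0.643). IVL was at 0.08 (95% interval -0.30 to 0.47), CSTA at 0.06 (-0.13 to 0.25), TGM1 at -0.004 (-0.36 to 0.35) and CNFN at -0.05 (-0.70 to 0.59).

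In DCIS.COM the smallest p-value among the members was that of CSTA. Its level was 3.50 and 3.62 log2 CPM with the empty vector and 4.09 and 4.09 log2 CPM with pCDH-HOTAIR, with no overlap. The log2 fold change of CSTA was 0.53 ± 0.08 (SE, adjusted p = 0.0972), which is under 1.5-fold and missed the adjusted threshold. SPINK5 had 37 and 34 reads with the empty vector and 95 and 59 with pCDH-HOTAIR, and its log2 fold change was 0.76 ± 0.20 (adjusted p = 0.203). KLK8 went from 0 reads in both libraries to 3 and 1, which is at the limit of what this depth can show. S100A2 was at 11.32 and 11.71 against 11.96 and 11.91 log2 CPM, with a log2 fold change of 0.42 ± 0.12 (adjusted p = 0.222).

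The other members under an unadjusted p of 0.05 in DCIS.COM were S100A3 (0.41), S100A9 (0.30), S100A11 (0.22), S100A14 (0.20) and SERPINB1 (0.20), with higher values in pCDH-HOTAIR libraries, and SERPINB9 (-0.47), all on the log2 scale. IVL was at 0.20 (95% interval -0.19 to 0.58), TGM1 at -0.19 (-0.55 to 0.17) and CNFN at 0.21 (-0.44 to 0.86). SPRR2B, SPINK5 and KLK10 are among the genes the study listed as changed on these same libraries, so they are not independent evidence. The study tested with edgeR and reported more changed genes in each line than limma called here. The reason for that difference was not tested. KLK10 was at -0.59 in DCIS.COM (adjusted p = 0.286) and -0.32 in MCF10A (adjusted p = 0.899), and SPRR2B was at -0.41 in DCIS.COM (adjusted p = 0.520). SPINK5 was at -0.42 in MCF10A (adjusted p = 0.739).

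These counts depended on DCIS.COM pCDH-empty 1. With that library as the only DCIS.COM empty control, 7 members were called in DCIS.COM (CSTA, SPINK5, S100A2 and SERPINB7 higher, SERPINB9, KLK10 and SPRR2B lower), which is 17.1% against 10.2% of all genes. In the difference between the lines 10 were called, 24.4% against 32.1% of all genes. With that library left out instead, 0 members were called in either, against 0.436% and 0.646% of all genes. The spread of a group with 1 library was then taken from the other groups. Without DCIS.COM pCDH-empty 1, the log2 difference in DCIS.COM was 0.22 for S100A2, 0.20 for S100A9, 0.08 for S100A14, -0.21 for SERPINB9 and -0.34 for KLK10. With it as the only empty control, these were 0.62, 0.40, 0.32, -0.73 and -0.85. SPRR2B went from 0.12 to -0.94 and IVL from -0.03 to 0.42 in the same order. CSTA was at 0.47 without the library (adjusted p = 0.0244, under 1.5-fold) and at 0.59 with it alone, and SPINK5 at 0.74 and 0.78.

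**Figure D4:**
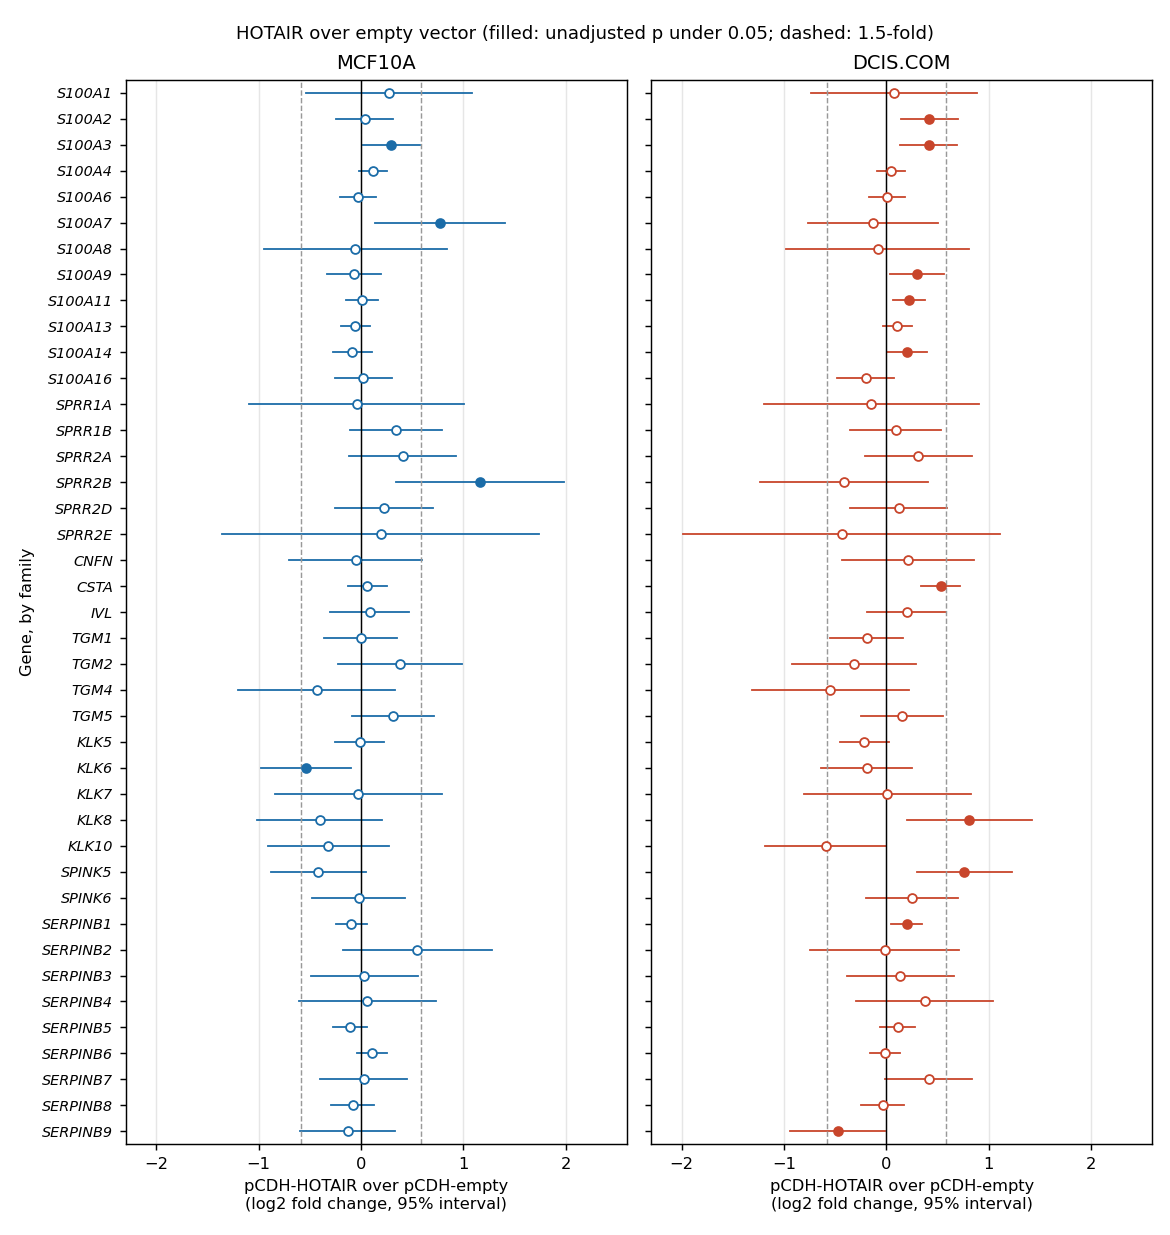
Log2 fold change of pCDH-HOTAIR over pCDH-empty (x axis, 95% limma intervals) for the 41 genes (y axis), in MCF10A (left, blue) and DCIS.COM (right, red). Filled points have an unadjusted p under 0.05 (4 in MCF10A and 10 in DCIS.COM), dashed lines mark 1.5-fold, and no gene passed the adjusted threshold.

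The difference of the HOTAIR effect between the lines (DCIS.COM minus MCF10A) was 1.18 ± 0.28 for SPINK5 (SE, log2 scale, adjusted p = 0.303), 0.47 ± 0.12 for CSTA (adjusted p = 0.307) and -1.57 ± 0.50 for SPRR2B (adjusted p = 0.422). For SPINK5 the pCDH-HOTAIR libraries were both lower than the empty ones in MCF10A and both higher in DCIS.COM. For SPRR2B they were both higher in MCF10A, and in DCIS.COM they lay between the empty ones. The other 4 members under an unadjusted p of 0.05 were KLK8 (1.22), SERPINB1 (0.29), S100A14 (0.28) and S100A7 (-0.91). None passed the adjusted threshold.

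Other genes of the pathway were followed in a list of 56 envelope partners and differentiated-layer genes, of which 34 were in the table. With the empty vector 29 of the 34 were called, 9 higher and 20 lower in DCIS.COM, with a median log2 fold change of -1.36. These were 85.3% of the list, against 46.3% of all genes. With pCDH-HOTAIR 9 were higher and 18 lower (79.4%, against 43.7% of all genes), with a median of -1.10. The filter of the table bears on these numbers too. CASP14, RHCG and HRNR passed it through MCF10A alone and had to be lower in DCIS.COM. A count over genes above 0.5 CPM in both lines was not made for this list. CASP14, a caspase of the cornifying layer, had 833, 734, 505 and 455 reads in the MCF10A libraries and 0 reads in each DCIS.COM library, at least 514-fold lower with the empty vector. RHCG, an ammonium transporter of stratified epithelium, had 1374, 1040, 1117 and 1084 reads against 0, 0, 1 and 0, at least 792-fold lower with the empty vector. KRT6A, a keratin of activated keratinocytes, fell by 6.95 ± 0.09 on the log2 scale (SE, adjusted p = 2.63e-09) and HRNR (hornerin), a filaggrin-like protein, by 5.22 ± 0.37 (adjusted p = 5.4e-06). PADI3, a peptidylarginine deiminase, was higher in DCIS.COM than in MCF10A by 5.01 ± 0.16 with the empty vector (adjusted p = 8.87e-08) and by 5.53 ± 0.16 with pCDH-HOTAIR (adjusted p = 5.82e-08).

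For HOTAIR, no envelope partner was called in either line. At an unadjusted p under 0.05 there were 3 in MCF10A (8.82%, against 7.28% of all genes) and 12 in DCIS.COM (35.3%, against 17.5%), 11 of the 12 higher with HOTAIR. HRNR, singled out after its values were seen, had 1 and 0 reads with the empty vector and 8 and 13 reads with pCDH-HOTAIR in DCIS.COM (log2 fold change 2.09 ± 0.37, SE, adjusted p = 0.119), against 72, 115, 113 and 96 reads in the MCF10A libraries.

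Of 23 regulators of epidermal differentiation 21 were in the table. With the empty vector 8 were called higher and 6 lower in DCIS.COM, with a median log2 fold change of 0.18, and with pCDH-HOTAIR 8 higher and 7 lower. These were 66.7% and 71.4% of the list, against 46.3% and 43.7% of all genes. CEBPA, a C/EBP transcription factor, had 1, 2, 2 and 0 reads in the MCF10A libraries and 202, 165, 294 and 292 in the DCIS.COM libraries. With the empty vector CEBPA was higher in DCIS.COM by 5.72 ± 0.39 on the log2 scale (SE, adjusted p = 4.93e-06). MAF, a transcription factor, was higher in DCIS.COM by 3.04 ± 0.40 on the log2 scale (adjusted p = 0.000211). HOPX had 44, 43, 14 and 19 reads against 0 in each DCIS.COM library, at least 28.5-fold lower with the empty vector. CEBPA passed the filter of the table through DCIS.COM alone and HOPX through MCF10A alone, so it set their directions. No regulator was called for HOTAIR, and 5 in MCF10A (23.8%, against 7.28% of all genes) and 9 in DCIS.COM (42.9%, against 17.5%) had an unadjusted p under 0.05.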

How the data were processed

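RNA-seq of 8 libraries (2 for each of 4 groups) was used. Per the paper's methods, 76-nucleotide paired-end ScriptSeq v2 reads were aligned to hg19 (Rsubread), assigned to the UCSC known gene set by featureCounts and given symbols from org.Hs.eg.db. The authors deposited log2 CPM values made with edgeR. Every gene of the table was above 0.5 CPM, prior included, in at least 2 libraries, which is taken here as its filter. The filter and the prior were read from the values, since the paper's methods name neither. Versions, the prior, the strand setting and the treatment of near-identical copies are not given in the sources used here.

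From the deposited log2 values, a shared minimum of 0.0717 CPM was removed in each library, and 100% of the values came out as whole reads (within 0.02 of a read). No per-sample column was left unused, and 343 genes without a symbol were tested but not named.

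Group means were fitted with limma 3.58.1 (lmFit, eBayes with a mean-variance trend, R 4.3.3) to the log2 CPM of 8 libraries and 13771 genes, with 5 contrasts. A gene was called when its p-value, adjusted by Benjamini-Hochberg, was below 0.05 and it differed 1.5-fold or more. No fold was asked for in the difference between the lines. Fold changes are on the log2 scale of CPM plus the prior, which understates low genes. Summed-CPM folds have exact binomial intervals (95%). Coordinates and exon lengths are from GENCODE on GRCh37. The test was checked on simulated data. The members, lists and motifs were chosen with earlier results of these data known. Fold changes with tests were printed for IVL, CNFN, CSTA and TGM1, for up to 4 called members per family with the largest change with the empty vector, for up to 10 members with an unadjusted p under 0.05 in the HOTAIR contrasts, for SPRR2B, SPINK5 and KLK10, and for up to 4 called genes of each other list, of which 1 is not reported here. Fold changes of S100A11, SPRR1B and TGM5 were added after their values were seen. Replicate numbers did not pair the libraries (correlation of same-numbered deviations -0.0161 to 0.0661). Alternatives were another pseudocount, centring, filter, trend, block, set of libraries, threshold and model.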

Additional observations from a re-analysis of the deposited data

How the results depend on the processing

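The counts of called members between the lines ranged from 26 to 35 with the empty vector and from 26 to 33 with pCDH-HOTAIR over the alternative settings. Counting genes above 0.5 CPM in both lines alone, a choice made after seeing the data, gave 22 and 21. Over all genes, a log2 fold change of at least 1.5 left 2418 and 2357 calls in place of 6370 and 6018. For HOTAIR in MCF10A the 3 calls over all genes became 6 with a pseudocount of 1, 1 with only the libraries of the contrast, 5 with limma-voom, 1 at a log2 fold change of at least 1.5, and 1 to 51 when 1 library was left out. For HOTAIR in DCIS.COM the 12 calls became 6 without the trend, 20 with the replicate block, 0 with only the libraries of the contrast, 1 at a log2 fold change of at least 1.5, and 1 to 1403 when 1 library was left out. For the difference between the lines the 6 calls became 10 with a pseudocount of 1, 0 without the trend, 0 with the replicate block, and 0 to 4414 when 1 library was left out. Members called ran from 0 to 7 for HOTAIR in DCIS.COM and from 0 to 10 for the difference, the highest values without DCIS.COM pCDH-empty 2. The cause of these shifts was not tested.

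With the replicate block the member counts stayed at 32 and 31 between the lines and at 0 for HOTAIR, and the replicate numbers did not pair the libraries. With 1 library left out, the log2 fold change between the lines ranged for CNFN from -0.46 to 0.0607 (empty vector) and from -0.19 to 0.32 (pCDH-HOTAIR, -0.0477 with quantile normalization). For HOTAIR in MCF10A it ranged from -0.31 to 0.21 for CNFN, -0.0086 to 0.13 for CSTA, -0.0887 to 0.26 for IVL, -0.69 to 0.0567 for KLK10 and -0.0879 to 0.0805 for TGM1 (0.0125 with quantile normalization). For HOTAIR in DCIS.COM it ranged from -0.0476 to 0.47 for CNFN, -0.0268 to 0.42 for IVL and -0.94 to 0.12 for SPRR2B, and for the difference from -0.11 to 0.34 for IVL. None of these was called with all libraries. The difference between the lines could not be fitted with only the libraries of one contrast, since it uses all 8. Low read numbers limit the precision for KLK8, SPRR2B, SPRR2E, S100A7 and CNFN.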
